A study of Mus musculus with 18 samples.

Results

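The change in gene expression between day 3 and day 4 of an in vitro motor neuron differentiation was measured on 6 of the 18 arrays of the series: 3 arrays of progenitor motor neurons at day 4 and 3 arrays of neural precursors at day 3. The arrays were chosen by their labels alone, and all 18193 genes with a probe set of their own were compared. Every array came from HBG3, a mouse embryonic stem (ES) cell line known for carrying a GFP reporter under the promoter of the motor neuron gene Hb9 (Mnx1). The cells were dissociated at day 0 and grew as embryoid bodies, and retinoic acid (RA) and a hedgehog agonist were added to them at day 2, so that day 4 cells had been exposed for 1 day longer than day 3 cells. The other 12 arrays held 3 of undifferentiated ES cells (day 0), 4 of day 2 embryoid bodies, 2 of day 2 embryoid bodies given RA for 8 h and 3 of postmitotic motor neurons (day 7). No array of untreated cells at day 3 or day 4 was analysed here, so the effects of the longer exposure and of the added day of culture cannot be told apart. An embryoid body holds several kinds of cell and comes from a single line here, and fewer cells of a kind and less RNA per cell cannot be told apart in such samples.

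In the embryo, RA from the somites turns caudal neural cells toward a hindbrain and cervical spinal identity, and Sonic hedgehog from the notochord and floor plate patterns the neural tube from its ventral side. Graded hedgehog signaling divides ventral progenitors into domains by the transcription factors they express. Olig2 with Nkx6-1 marks the motor neuron progenitor domain, Nkx2-2 the domain ventral to it, and Pax6 and Irx3 more dorsal progenitors. Proneural factors such as Neurog2 then drive cells out of the cycle, Notch signaling holds their neighbors back as progenitors, and newborn motor neurons switch on the LIM-homeodomain factors Isl1 and Lhx3 followed by Mnx1.

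Values are GCRMA-normalized log2 intensities, so 1 unit is a 2-fold difference. Between 55.2 and 56.9% of probe sets lay under 4 on each of the 18 arrays, and 4 is used here as the background level. A gene was called when at least 1 of its probe sets differed by 2-fold or more with a Benjamini-Hochberg adjusted p under 0.01 in limma, and its value is that of its brightest probe set. Where all arrays of the dimmer stage lay under 4, the fold is given as a lower bound, from the mean of the brighter stage against a level of 4. The arrays of the 2 stages were close to each other, with a Pearson correlation over probe sets of 0.969 to 0.983 among the day 4 arrays and 0.983 to 0.993 among the day 3 arrays. Replicate 3 of day 3 correlated more closely with replicate 3 of day 4 (0.989) than with the other day 3 arrays. A fit that pairs the arrays by replicate number (the number as a block) is given where it changes the call of a named gene or of a member of a gene list. The difference between 3' and 5' Actb control probe sets spanned 1.66 to 2.08 at day 4 and 1.64 to 2.21 at day 3. For Gapdh, replicate 3 stood apart at both stages, at 1.41 at day 4 and 1.41 at day 3, while replicates 1 and 2 lay between 0.91 and 0.97.

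Between the 2 stages, 258 genes were called, or 1.42% of those tested. Of these, 114 were higher at day 4 (0.627%) and 144 were lower (0.792%). The same 2 shares stand beside each count of called list members below. The call itself required a difference of 2-fold or more. On their brightest probe set, 80 of the higher and 98 of the lower genes differed by 4-fold or more in their means. Values under background are included in those counts. Over all genes, the median difference was 0.00, and the median of its size without the sign was 0.12. For 112 of the 114 higher genes and all 144 lower genes, the difference had the same sign within each of the 3 replicate numbers. The genes were called on the same arrays, so these signs are no separate support for the calls, and the share over all genes was not counted. All day 4 arrays lay above all day 3 arrays for 1041 genes (5.72%) and below them for 1439 (7.91%), or, at 2-fold or more, for 351 (1.93%) and 571 (3.14%). At day 3, 31 of the higher genes lay under background on every array, and at day 4, 41 of the lower genes did. With the replicate number as a block, 133 genes were higher (0.731%) and 168 lower (0.923%).

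These calls rest on a spread shared over all 18 arrays. The spread of a gene at the other stages can therefore move it across the threshold in either direction. With only the 6 arrays of day 4 and day 3 in the fit, 6 genes were higher and 11 lower, 2 and 6 of them among the genes above, and Gm16551, Akr1c19 and Grifin were the named genes that remained called. Without replicate 1 of day 3 the fit called 83 higher and 85 lower genes, without replicate 2 of day 3 84 and 92, and without replicate 2 of day 4 82 and 89. The methods name biological triplicates without saying what was repeated, and p-values measure the spread between these samples.

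**Figure D1:**
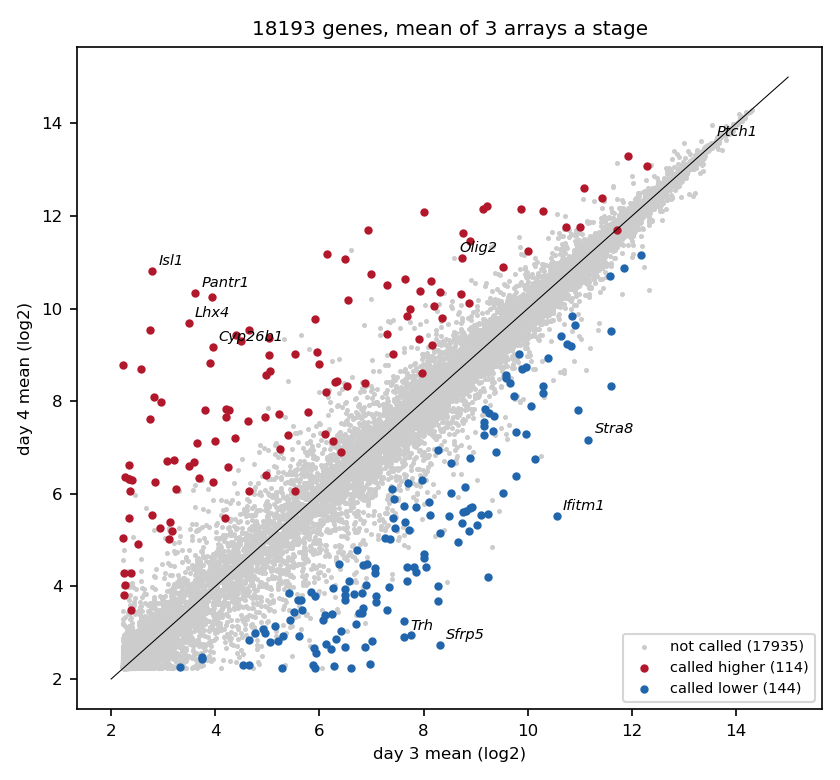
Mean log2 value of each of the 18193 genes over the 3 day 4 arrays (vertical axis) against the mean over the 3 day 3 arrays (horizontal axis), with the 114 genes called higher in red, the 144 called lower in blue and the other 17935 in grey. Isl1 stands farthest above the line of equal values, and Ptch1 lies on it.

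The largest rise of any gene was that of Isl1, the LIM-homeodomain factor that newborn motor neurons need. Isl1 read 10.76, 11.20 and 10.48 at day 4, against 2.56, 3.37 and 2.44 at day 3. The stages did not overlap and day 3 lay under background, so that Isl1 was at least 112-fold higher at day 4 (adjusted p = 1.9e-07, limma). Its 2 probe sets both passed the test. Lhx4, the paralog of Lhx3 that acts with it in motor neurons, read 10.01, 10.29 and 8.78 at day 4, against 4.41, 2.82 and 3.23 at day 3, a difference of 6.20 ± 0.55 SE with adjusted p = 5.4e-05 in limma. Lhx3, the partner of Isl1 in the motor neuron complex, stayed dimmer and read 5.63, 6.62 and 5.94 at day 4, against 2.24, 2.63 and 2.24 at day 3, which was at least 4.18-fold higher (adjusted p = 7.1e-04, limma). All 3 calls were kept whichever of the 6 arrays was left out.

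The later marker Mnx1 was not called. Mnx1 read 3.55, 5.53 and 4.48 at day 4, against 3.48, 4.04 and 2.54 at day 3, and the stages overlapped; its difference was 1.17 ± 0.51 SE with adjusted p = 0.61 in limma. Genes of transmitter synthesis in mature motor neurons were at background, with Chat, the acetylcholine-synthesizing enzyme, at 2.30 ± 0.11 at day 4 and 2.24 ± 0.00 at day 3 (SD, n = 3 each) and Slc18a3, the vesicular acetylcholine transporter, at 2.70 ± 0.70 at day 4 and 2.24 ± 0.00 at day 3 (SD, n = 3 each). Of the 27 measured genes of motor neuron identity, 3 were higher and 2 lower, against 0.627% and 0.792% of all genes. Their median difference was 0.33. The 2 lower genes were Met, the hepatocyte growth factor receptor, at 3.95, 5.86 and 6.17 at day 4, against 9.42, 9.29 and 8.39 at day 3 (adjusted p = 0.0036, limma), and Aldh1a2, described with the retinoid genes. Without replicate 1 or replicate 2 of day 3 both of these calls were lost, with an adjusted p of up to 0.023 without day 3 replicate 1 for Met.

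Among the factors that divide the neural tube into domains, 13 of 23 measured genes had a mean at or above background at day 4 or day 3. Of the 23, 2 were higher and none lower, against 0.627% and 0.792% of all genes, with a median difference of 0.01. Both higher genes belong to the most ventral progenitors. Nkx2-2 read 6.55, 7.98 and 5.33 at day 4, against 2.37, 2.37 and 2.27 at day 3, at least 6.15-fold higher (adjusted p = 1.6e-04, limma), with a wide spread among the day 4 arrays. Its relative Nkx2-9 read 7.40, 6.31 and 7.74 at day 4, against 3.25, 4.35 and 4.38 at day 3 (3.16 ± 0.38 SE, adjusted p = 7.1e-04, limma). Nkx2-9 had a group mean at or above background at day 4 alone among the 6 groups, although 2 day 3 arrays exceeded 4, while Nkx2-2 went on to 10.65 at day 7.

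Olig2, the factor that defines motor neuron progenitors, was already well above background at day 3. Olig2 read 11.29, 11.01 and 10.996 at day 4, against 8.63, 8.91 and 8.19 at day 3, so the stages did not overlap and the ratio was 5.73-fold, but its adjusted p of 0.023 in limma missed the threshold of 0.01. Olig1, which lies beside it in the genome, likewise averaged 9.34 ± 0.19 at day 4 and 5.32 ± 0.19 at day 3 (SD, n = 3 each) with adjusted p = 0.024 in limma. Nkx6-1 averaged 9.17 ± 0.54 at day 4 and 7.77 ± 0.70 at day 3 (SD, n = 3 each) with adjusted p = 0.44 in limma. The more dorsal factors Pax6 and Irx3 had negative differences, -1.0 ± 0.98 SE and -1.32 ± 0.50 SE, with adjusted p of 1 and 0.44 in limma. With the replicate number as a block, Dbx1, an interneuron progenitor factor chosen here after its values were seen, was called lower (adjusted p = 1.1e-06, limma; adjusted p = 0.05 without the block), as was Pax6 on a dimmer probe set.

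**Figure D2:**
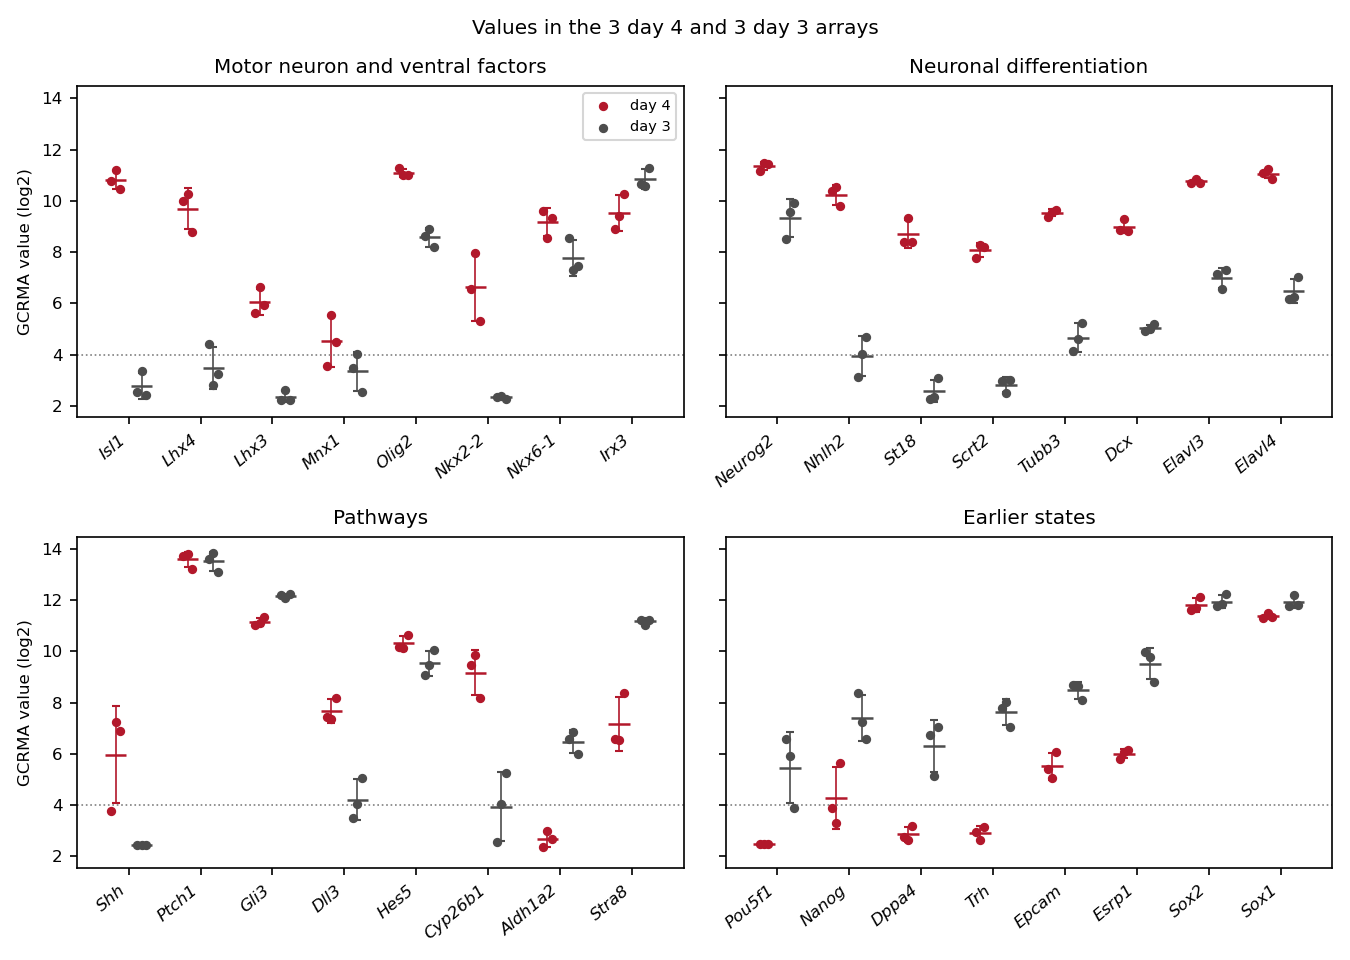
Log2 values of 32 genes on the 3 day 4 arrays (red, left of each pair) and the 3 day 3 arrays (grey, right), with the mean and SD as bars and a dotted line at 4. Isl1, Nkx2-2, St18 and Scrt2 lie under background on all day 3 arrays and above it on all day 4 arrays, while the 2 stages overlap for Ptch1 and Sox2.

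Of 35 measured proneural and neuronal differentiation factors, 11 were higher at day 4 and none lower, against 0.627% of all genes higher, and their median difference was 1.48. Nhlh2, a helix-loop-helix factor of young neurons, read 10.38, 10.55 and 9.80 at day 4, against 3.14, 4.02 and 4.67 at day 3, a difference of 6.30 ± 0.35 SE (adjusted p = 7.3e-07, limma). St18, a zinc finger factor of the Myt family, read 8.40, 9.34 and 8.38 at day 4, against 2.29, 2.36 and 3.08 at day 3, at least 26.1-fold higher (adjusted p = 1.0e-06, limma). Scrt2, a repressor of the Snail superfamily found in new neurons, read 7.78, 8.29 and 8.21 at day 4, against 2.96, 2.50 and 3.03 at day 3, at least 17.1-fold higher (adjusted p = 1.4e-06, limma). These 3 genes were near or under background on all day 3 arrays. Nhlh1 read 8.71, 9.48 and 9.72 at day 4, against 3.81, 4.01 and 5.70 at day 3 (4.80 ± 0.68 SE, adjusted p = 0.0023, limma), and its call was lost without replicate 1 or 2 of day 3 or replicate 2 of day 4, with an adjusted p of up to 0.016 without day 3 replicate 1.

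The other called members, picked out here after their values were seen, were Neurog1, Ebf3, Pou3f3, Pou3f2, Neurod1, Neurod4 and Onecut2, of which Neurod4, Pou3f2 and Onecut2 passed on a dimmer probe set only. Neurog1, a proneural factor, read 9.46, 9.63 and 10.27 at day 4, against 5.39, 4.96 and 7.38 at day 3, and Ebf3, a factor downstream of it, read 9.48, 9.90 and 8.72 at day 4, against 4.74, 5.15 and 5.21 at day 3. Neurog2, the proneural factor of motor neuron progenitors, was higher on every day 4 array than on any day 3 array, at 11.17, 11.47 and 11.44 at day 4, against 8.52, 9.55 and 9.94 at day 3, but its adjusted p was 0.87 in limma. Across the list, leaving out 1 array gave 8 to 12 higher genes.

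Of 44 measured pan-neuronal genes, used by neurons of every kind, 13 rose and none fell, against 0.627% and 0.792% of all genes. Their median difference was 1.11. Tubb3, the neuronal beta-tubulin, read 9.38, 9.57 and 9.64 at day 4, against 4.12, 4.60 and 5.25 at day 3, a 29.4-fold difference (adjusted p = 5.8e-04, limma). Dcx, the microtubule-binding protein doublecortin, read 8.87, 9.28 and 8.82 at day 4, against 4.91, 4.98 and 5.18 at day 3, a 15.7-fold difference (adjusted p = 3.8e-07, limma). Both genes varied less within a stage than between the stages. Elavl3 and Elavl4, neuronal RNA-binding proteins, differed by 3.77 ± 0.42 SE and 4.57 ± 0.36 SE, with adjusted p of 3.8e-04 and 1.8e-05 in limma. Cntn2, an axonal adhesion protein, read 9.21, 9.23 and 8.01 at day 4, against 4.11, 4.08 and 3.50 at day 3 (adjusted p = 0.001, limma).

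Tubb3 was not new at day 4, since it averaged 7.55 at day 0 and 8.38 after 8 h of RA before its low point at day 3. Of the 114 genes higher at day 4, 10 had been called lower at day 3 against day 2 and 29 higher. Ina and Nefl, picked out after their values were seen, were among those called lower there. Ina averaged 11.05 at day 2, 8.73 at day 3 and 11.10 at day 4, and Nefl 9.97, 7.94 and 10.39. Stmn2, a growth cone protein, passed on its dimmer probe set only, and its brighter one averaged 9.22 ± 0.88 at day 4 and 8.16 ± 0.60 at day 3 (SD, n = 3 each) (adjusted p = 0.67, limma). Without replicate 2 of day 4 the count of higher pan-neuronal genes was 7. With the replicate number as a block it was 12, where the filament gene Nefl (adjusted p = 0.016) and the growth cone gene Gap43 (adjusted p = 0.013) were no longer called by limma and the RNA-binding protein gene Celf3 (adjusted p = 0.0068) was newly called higher. All 3 were picked out after their values were seen.

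Genes of the neuronal surface moved in smaller numbers. Among the ion channel and transmission genes, 15 of 30 had a mean at or above background at day 4 or day 3. Of 30 measured ion channel and transmission genes, 3 were higher: Cacna2d1, an auxiliary calcium channel subunit, at 10.12, 10.43 and 10.003 at day 4, against 6.23, 6.99 and 6.44 at day 3; Glra1, a glycine receptor subunit, at 5.94, 5.75 and 4.77 at day 4, against 2.35, 2.35 and 2.35 at day 3; and Chrna3, a nicotinic acetylcholine receptor subunit, at 7.80, 9.06 and 7.74 at day 4, against 5.78, 6.46 and 6.12 at day 3. The first of these was 12.4-fold higher, Glra1 at least 2.8-fold and Chrna3 4.23-fold, with adjusted p of 1.9e-04, 4.6e-04 and 0.004 in limma. The Chrna3 call was lost without replicate 1 or replicate 3 of day 3 (up to 0.026 without day 3 replicate 1). In the fit with the block, the calcium channel subunit gene Cacng4 (adjusted p = 0.0023) and, among axon guidance genes, the ephrin receptor gene Epha3 (adjusted p = 0.0084), both named after their values were seen, were also higher in limma. Of 35 axon guidance genes, Cntn2, the semaphorin receptor Nrp2 and the ephrin receptor Epha4 were higher, and the median difference of the list was 0.02. Epha4 read 10.52, 11.06 and 10.23 at day 4, against 8.01, 7.91 and 8.52 at day 3 (adjusted p = 0.0011, limma). Nrp2 differed by 2.82 ± 0.43 SE (adjusted p = 0.0041, limma). In limma it missed the threshold with the replicate number as a block (adjusted p = 0.011) and without either of replicates 1 and 2 of each stage (up to 0.025 without day 4 replicate 2). The neural splicing regulator Srrm4 rose 9.28-fold, to 10.52 at day 4, against 7.30 at day 3 (adjusted p = 9.2e-04, limma), and with the block Elavl1, named after its values were seen, was higher in the same splicing and RNA-binding list on a dimmer probe set.

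**Figure D3:**
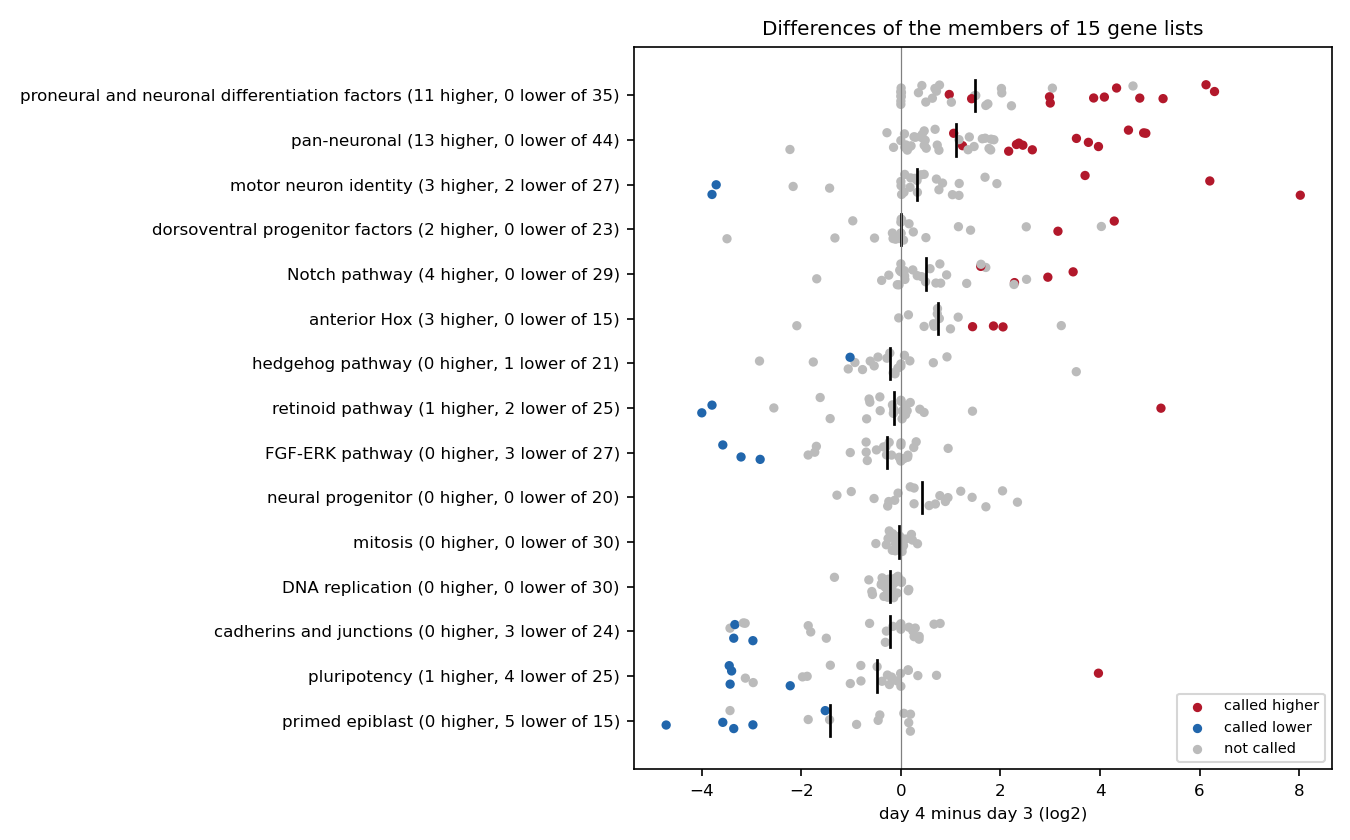
Day 4 minus day 3 difference on the log2 scale (horizontal axis) for each measured member of 15 gene lists, with called members in red (higher) or blue (lower), the others in grey and the list median as a black bar. The proneural and pan-neuronal lists reach to the right with medians of 1.48 and 1.11, the primed epiblast list to the left with a median of -1.43, and the mitosis list stays within -0.50 and 0.33.

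Long noncoding transcripts stood among the largest rises beside Isl1. Pantr1, a transcript that starts next to the neural factor gene Pou3f3, read 10.31, 10.58 and 10.08 at day 4, against 2.59, 2.57 and 5.67 at day 3 (adjusted p = 6.1e-05, limma), and 2 of the 3 day 3 arrays were under background. Pou3f3 itself, 943 bases away (GRCm38.p6), read 12.14, 12.22 and 11.91 at day 4, against 7.42, 8.02 and 8.56 at day 3. C130071C03Rik read 10.95, 11.30 and 11.29 at day 4, against 5.31, 4.77 and 8.33 at day 3 (5.04 ± 0.75 SE, adjusted p = 0.0034, limma). Replicate 3 of day 3 was well above its fellow arrays for both Pantr1 and C130071C03Rik. The brightest probe set of C130071C03Rik missed the threshold without any 1 of 5 arrays (all but replicate 3 of day 3, up to 0.022 without day 3 replicate 1), but 2 dimmer probe sets passed at an adjusted p of 5.0e-05 and 2.2e-05. This transcript (chr13:83721381-83741308) spans the hairpin of Mir9-2 (chr13:83738814-83738885, plus strand), the source of the neural microRNAs below, shown because they lie inside 1 of the largest rises. Capitals mark the seed, bases 2 to 8, from RefSeq on GRCm38.p6. The 2 arms have different seeds, and the arrays did not measure either mature microRNA.
miR-9-5p: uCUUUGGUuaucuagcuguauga
miR-9-3p: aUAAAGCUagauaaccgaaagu
Mir124a-1hg, named as the host transcript of another neural microRNA, read 8.17, 8.69 and 7.08 at day 4, against 2.97, 2.97 and 2.92 at day 3, at least 15.8-fold higher (adjusted p = 1.4e-04, limma). The remaining rises among the largest 15 were Tmem178 at 9.33, 9.38 and 9.56 at day 4, against 4.19, 3.19 and 5.81 at day 3, Gm16551 (at least 46.1-fold higher), D930028M14Rik (at least 27.5-fold) and A730035I17Rik (at least 12.3-fold), all with an adjusted p of 2.9e-04 or less in limma. A730035I17Rik overlaps the gene of the histone methyltransferase family member Prdm8, which differed by 4.76, and whether their probe sets read one another was not tested.

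RefSeq promoters (250 bases before to 50 after a transcript start, GRCm38.p6) were searched for the E-box CAGATG, a sequence that proneural factors are known to bind, on both strands. It was present in 23 of 112 promoters of 79 higher genes (20.5%), in 16 of 137 promoters of 108 lower genes (11.7%) and in 17.2% of all 32851 promoters. Promoters of 1 gene can overlap, so the same letters can be counted more than once, as for Elavl4. The share per gene was not counted. The promoters of Nhlh2 and Nkx2-2 each hold 1 match, in capitals below, and that of Isl1, the gene with the largest rise, holds none. The search was chosen after the calls were known, and a match describes letters, not binding.
Isl1 (chr13:116309639-116309938, minus strand): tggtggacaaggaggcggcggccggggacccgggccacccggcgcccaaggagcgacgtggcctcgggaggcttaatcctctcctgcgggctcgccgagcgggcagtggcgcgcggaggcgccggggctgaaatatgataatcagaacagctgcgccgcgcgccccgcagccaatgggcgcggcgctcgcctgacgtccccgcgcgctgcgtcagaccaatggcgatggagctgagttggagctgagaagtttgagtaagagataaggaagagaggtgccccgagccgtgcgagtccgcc
Nhlh2 (chr3:102009895-102010194, plus strand): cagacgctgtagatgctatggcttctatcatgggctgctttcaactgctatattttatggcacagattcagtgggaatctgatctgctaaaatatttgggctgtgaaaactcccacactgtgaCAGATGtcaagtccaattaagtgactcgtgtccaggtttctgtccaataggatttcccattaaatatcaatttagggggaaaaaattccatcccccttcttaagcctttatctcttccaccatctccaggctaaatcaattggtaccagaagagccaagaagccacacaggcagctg
Nkx2-2 (chr2:147186353-147186652, minus strand): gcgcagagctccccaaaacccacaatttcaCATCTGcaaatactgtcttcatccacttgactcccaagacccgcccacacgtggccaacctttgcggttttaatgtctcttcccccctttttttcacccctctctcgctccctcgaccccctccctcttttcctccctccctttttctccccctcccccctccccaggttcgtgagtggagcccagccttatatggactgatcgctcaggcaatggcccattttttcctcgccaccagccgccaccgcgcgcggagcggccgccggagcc
For the called Notch genes with a promoter in the table (Nrarp, Dlk1 and Dll3), no core RBPJ sequence TGGGAA was found, whereas 25.6% of all promoters hold it. The promoter of Gli3 held no core Gli sequence GGTGGTC, which 2.8% of all promoters hold.

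Through the Notch pathway, neighboring cells restrain each other's differentiation. Of its 29 measured genes, 4 were higher and none lower, against 0.627% and 0.792% of all genes, with a median difference of 0.50. Dll3, a ligand that dampens Notch signaling in the cell that makes it, read 7.44, 7.37 and 8.19 at day 4, against 3.49, 4.06 and 5.07 at day 3 (3.46 ± 0.52 SE, adjusted p = 0.0037, limma). Hey1, a Notch target and repressor, read 9.79, 10.53 and 10.63 at day 4, against 8.38, 8.82 and 8.95 at day 3, a 3.04-fold difference (adjusted p = 0.0022, limma). Nrarp, a feedback inhibitor, passed on its dimmer probe set (2.82, adjusted p = 0.0031, limma), and its brighter one read 12.09, 12.38 and 11.98 at day 4, against 9.72, 10.22 and 9.67 at day 3 (adjusted p = 0.017). The stages did not overlap for these 3 genes.

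Dlk1, an imprinted relative of the ligands, passed on its dimmer probe set alone, and on its brighter one replicate 3 of day 3 (7.16) lay above replicates 1 and 2 of day 4. The count of 4 was 0 without replicate 1 of day 3 or replicate 2 of day 4, 1 without replicate 2 of day 3 and 2 without replicate 1 of day 4, and Dll3 was called by limma only with all arrays or without replicate 3 of day 3 (up to 0.022 without day 3 replicate 1). Hey1 was lost without replicate 1 of day 3 or replicate 2 of day 4 (up to 0.014 without day 4 replicate 2). The ligand Dll1 and the effector Hes5 averaged 8.94 ± 0.60 at day 4 and 8.14 ± 0.37 at day 3 (SD, n = 3 each) and 10.32 ± 0.28 at day 4 and 9.53 ± 0.49 at day 3 (SD, n = 3 each), and neither was called (adjusted p of 0.94 and 0.73, limma). Hes1 differed by -0.24 ± 0.65 SE, with overlapping stages.

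The hedgehog pathway had 0 of 21 measured genes higher and 1 lower, against 0.627% and 0.792% of all genes. Its median difference was -0.22, and signaling itself was not measured. Ptch1, the receptor that hedgehog signaling induces, read 13.73, 13.80 and 13.23 at day 4, against 13.62, 13.83 and 13.10 at day 3, a difference of 0.07 ± 0.35 SE, and Gli1, an induced effector, differed by -0.22 ± 0.50 SE. Hhip, an induced antagonist, averaged 7.26 ± 0.23 at day 4 and 6.33 ± 0.24 at day 3 (SD, n = 3 each) (adjusted p = 0.37, limma). Gli1 averaged 7.73 at day 3, against 2.94 at day 2.

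The called gene was Gli3, which acts mainly as the pathway's repressor. Gli3 read 11.04, 11.09 and 11.33 at day 4, against 12.20, 12.10 and 12.23 at day 3, a 2.03-fold decrease with very little spread (adjusted p = 0.0059, limma). In limma this probe set missed the threshold with the replicate number as a block (adjusted p = 0.012), where another of its 3 passed, and without any 1 array other than replicate 3 of day 4 (up to 0.03 without day 3 replicate 1). The ligand Shh read 3.78, 7.26 and 6.88 at day 4, against 2.45, 2.45 and 2.45 at day 3. All day 3 arrays were under background and replicate 1 of day 4 was too, while the other 2 day 4 arrays were clearly above it. Shh was not called in the fit without a block (adjusted p = 0.016, limma) and was called with the replicate number as a block (adjusted p = 0.0061) and without replicate 1 of day 4, where 2 genes of the list were higher. Shh averaged 11.08 at day 7.

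Retinoid genes moved in both directions. Of 25 measured, 1 was higher and 2 were lower, against 0.627% and 0.792% of all genes, with a median difference of -0.14. Cyp26b1, an enzyme that degrades RA, read 9.45, 9.87 and 8.19 at day 4, against 2.56, 4.03 and 5.25 at day 3, a difference of 5.22 ± 0.58 SE (adjusted p = 3.7e-04, limma), and the 3 day 3 arrays were spread over more than 2 units. Its paralog Cyp26a1, which RA induces early, was bright at both stages, at 10.97, 10.66 and 10.75 at day 4, against 11.47, 11.23 and 11.73 at day 3, and was not called (adjusted p = 1, limma). Cyp26a1 averaged 11.78 after 8 h of RA. Cyp26b1 had a group mean at or above background at day 4 alone, although 2 of its day 3 arrays exceeded 4.

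Aldh1a2, the main enzyme of RA synthesis in the embryo, read 2.38, 3.01 and 2.69 at day 4, against 6.60, 6.87 and 5.98 at day 3, at least 5.59-fold lower at day 4 (adjusted p = 0.0017, limma). This call was lost without replicate 1 or 2 of day 3 (up to 0.011 without day 3 replicate 2). Stra8, an early RA target known from germ cells, read 6.59, 6.54 and 8.38 at day 4, against 11.24, 11.03 and 11.23 at day 3 (-4.0 ± 0.46 SE, adjusted p = 4.3e-04, limma). It stood at 11.26 after 8 h of RA and at 2.84 at day 7. With the replicate number as a block, the vitamin A uptake receptor Stra6 (adjusted p = 0.0022) and the RA-induced cohesin gene Rec8 (adjusted p = 0.003), both chosen after their values were seen, were also called lower by limma, so that 4 retinoid genes fell. Without replicate 2 of day 3 the count of lower genes was 1, and without replicate 3 of day 4 it was 4. The RA receptor Rarb differed by 0.47 ± 0.36 SE and was not called.

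RA induces Hox genes of the anterior groups along the hindbrain and cervical cord. Of 15 measured, 13 had a mean at or above background at day 4 or day 3. At day 4, 3 were higher, all of groups 4 and 5, against 0.627% of all genes. The median difference of the list was 0.74. Hoxa4 read 9.68, 9.79 and 9.92 at day 4, against 8.12, 8.09 and 8.85 at day 3, a 2.71-fold difference (adjusted p = 9.2e-04, limma), and Hoxa5 read 10.15, 10.28 and 10.68 at day 4, against 7.99, 7.78 and 9.18 at day 3, a 4.15-fold difference (adjusted p = 0.0081, limma). The 2 genes are neighbors in the Hoxa cluster, 10051 bases apart (chr6, GRCm38.p6). Hoxc5 passed on a dimmer probe set, and its brightest one read 9.89, 9.81 and 10.49 at day 4, against 7.90, 7.31 and 9.40 at day 3 (adjusted p = 0.027, limma), which passed with the replicate number as a block (adjusted p = 5.0e-04). For each of the 3 genes, replicate 3 of day 3 was the highest of the day 3 arrays.

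Hoxa5 missed the threshold without any 1 array other than replicate 3 of day 3 (up to 0.048 without day 3 replicate 1). Without replicate 3 of day 3, 5 anterior Hox genes were higher. With the replicate number as a block, 6 were higher, including Hoxb6 (adjusted p = 0.0075), Hoxa2 (adjusted p = 0.0031) and Hoxb4 on its dimmer probe set, and the group 1 gene Hoxb1 was lower (adjusted p = 3.2e-04, limma); Hoxb6, Hoxa2 and Hoxb1 were named after their values were seen. Hoxb4 averaged 11.86 ± 0.12 at day 4 and 11.13 ± 0.33 at day 3 (SD, n = 3 each) on its brighter probe set. None of 18 measured posterior Hox genes was called, and their median difference was 0.00. Only 2 of the 18 had a mean at or above background at day 4 or day 3. Hoxc6 and Hoxc8, which mark more caudal cord, averaged 3.69 and 6.0 at day 4, against 3.73 and 5.46 at day 3. Among 19 Hox partners and other positioning genes, Tshz2, a teashirt zinc finger factor, was higher (1.41 ± 0.24 SE, adjusted p = 0.0095, limma), a call lost without any 1 array other than replicate 3 of day 3 (up to 0.053 without day 3 replicate 1).

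**Figure D4:**
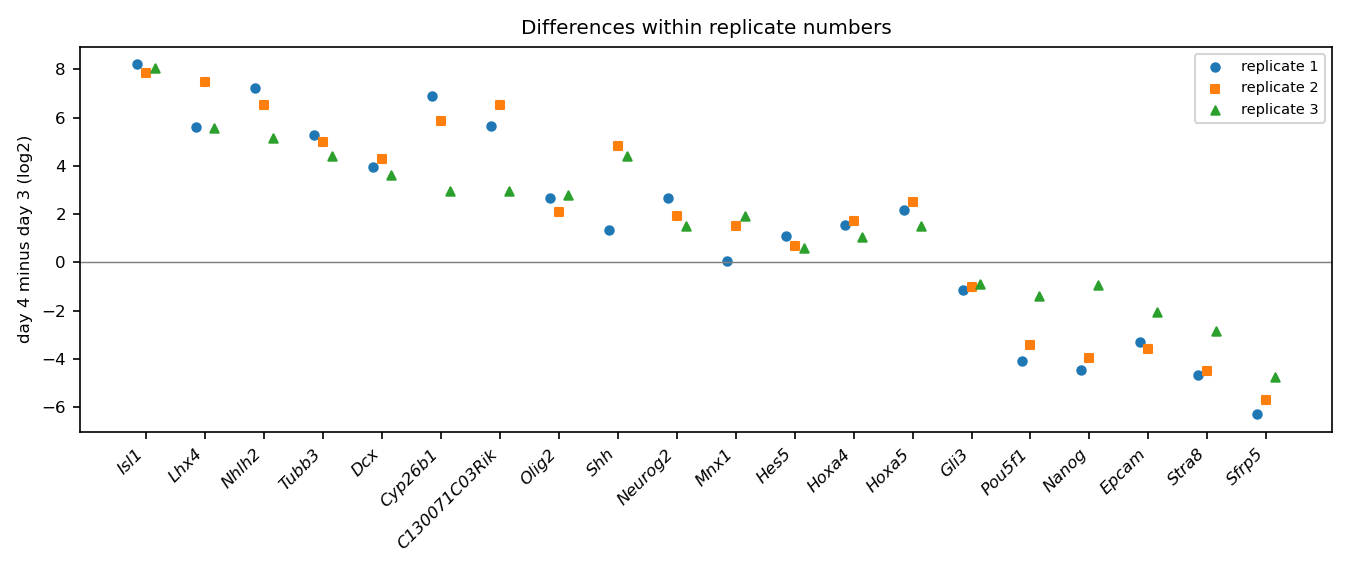
Day 4 minus day 3 difference on the log2 scale (vertical axis) within each replicate number for 20 genes, with circles, squares and triangles for replicates 1, 2 and 3. Isl1 differs by about the same amount in all 3, whereas replicate 3 gives smaller differences than replicates 1 and 2 for Cyp26b1, C130071C03Rik, Pou5f1, Nanog and Stra8.

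No gene of the neural progenitor list (20 measured) or of the lists for cyclins and G1 regulators (19), cell cycle exit (18), DNA replication (30) and mitosis (30) was called by limma. At an unadjusted p under 0.05, the progenitor list had 6 genes with positive and 1 with negative differences, the cyclin list 2 and 1, the exit list 3 and 1, the replication list 0 and 2 and the mitosis list 0 and 0. Sox2 and Sox1, which mark neural progenitors, stayed high at both stages, at 11.82 ± 0.28 at day 4 and 11.94 ± 0.26 at day 3 (SD, n = 3 each) for Sox2 and 11.38 ± 0.12 at day 4 and 11.92 ± 0.23 at day 3 (SD, n = 3 each) for Sox1, with differences of -0.12 ± 0.29 SE and -0.54 ± 0.25 SE. Nes, the progenitor filament nestin, averaged 8.92 ± 0.56 at day 4 and 7.97 ± 0.66 at day 3 (SD, n = 3 each) (adjusted p = 0.96, limma). All 30 mitosis genes had differences between -0.50 and 0.33 and those of DNA replication between -1.33 and 0.16, with medians of -0.04 and -0.21. Cdkn1c, a cyclin-dependent kinase inhibitor of differentiating progenitors, averaged 7.70 ± 0.94 at day 4 and 6.17 ± 1.05 at day 3 (SD, n = 3 each) and the G1 cyclin Ccnd1 10.64 ± 0.18 at day 4 and 11.25 ± 0.15 at day 3 (SD, n = 3 each), and neither was called (adjusted p of 0.87 and 0.83, limma). With the replicate number as a block, Pax6 was lower and the orphan receptor gene Nr2f2 higher in the progenitor list, and Plagl1, an imprinted zinc finger gene named after its values were seen, was higher in the exit list, each on a dimmer probe set. Nor was any of 23 genes of the BMP pathway (3 positive and 3 negative at an unadjusted p under 0.05) or 38 of the Wnt pathway (1 and 0) called. Id1, a BMP target, differed by 0.92 ± 0.38 SE. With the block, Wnt7a, named after its values were seen, was higher (adjusted p = 7.7e-06, limma).

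Of 25 measured genes of pluripotent cells, 4 fell and 1 rose, against 0.792% and 0.627% of all genes, and their median difference was -0.48. Dppa4, a chromatin-associated protein of pluripotent cells, read 2.75, 2.65 and 3.21 at day 4, against 6.75, 5.15 and 7.04 at day 3, at least 4.98-fold lower (adjusted p = 4.3e-04, limma). L1td1, an RNA-binding protein of ES cells, read 4.0, 3.45 and 3.54 at day 4, against 7.87, 7.40 and 6.0 at day 3 (adjusted p = 2.3e-04, limma), and Dppa5a read 7.07, 5.45 and 7.73 at day 4, against 10.53, 9.82 and 10.10 at day 3 (adjusted p = 8.7e-04, limma). Zfp42 (Rex1) read 2.24, 2.43 and 2.24 at day 4, against 5.44, 3.87 and 4.26 at day 3, at least 1.44-fold lower (adjusted p = 0.0039, limma), a call lost without any 1 of the day 4 arrays (up to 0.017 without day 4 replicate 1).

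The core factors Pou5f1 (Oct4) and Nanog did not overlap between the stages but missed the threshold. Pou5f1 read 2.50, 2.50 and 2.50 at day 4, against 6.57, 5.92 and 3.91 at day 3, and its replicate 3 of day 3 was the lowest of that stage (adjusted p = 0.012, limma). In limma it was called with the replicate number as a block (adjusted p = 0.0077) and without replicate 3 of day 3. Nanog read 3.90, 3.30 and 5.64 at day 4, against 8.36, 7.25 and 6.59 at day 3 (adjusted p = 0.011, limma), and was called without replicate 3 of day 3 or replicate 3 of day 4. Without replicate 3 of day 3, 7 genes of the list were lower. The gene that rose was Nr0b1 (Dax1), an orphan nuclear receptor of ES cells, at 5.45, 6.95 and 6.55 at day 4, against 2.24, 2.41 and 2.40 at day 3, at least 4.98-fold higher (adjusted p = 2.2e-05, limma). Nr0b1 was not new to the series, as it averaged 10.94 at day 0 and 8.73 after 8 h of RA, and it was back at 2.30 at day 7.

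Of 15 measured markers of the primed epiblast, 5 fell, against 0.792% of all genes, none rose and the median difference was -1.43. Epcam and Cldn6 are among the 5 and are counted again in the cadherin and junction list below. These genes were also bright in ES cells, with means of 11.78 and 11.04 at day 0. Trh, which encodes thyrotropin-releasing hormone, read 2.97, 2.63 and 3.14 at day 4, against 7.79, 8.04 and 7.05 at day 3, at least 12.3-fold lower (adjusted p = 1.1e-07, limma). Fgf15, a secreted FGF, read 2.70, 4.56 and 5.07 at day 4, against 7.58, 7.51 and 7.97 at day 3 (adjusted p = 0.0022, limma). Dnmt3b, a de novo DNA methyltransferase, read 8.76, 9.38 and 9.57 at day 4, against 10.75, 10.75 and 10.75 at day 3 (adjusted p = 0.0091, limma). In limma it was no longer called with the replicate number as a block (adjusted p = 0.014) or without any 1 array other than replicate 3 of day 4 (up to 0.042 without day 3 replicate 1), and Fgf15 was lost without replicate 1 or 3 of day 3 (up to 0.011 without day 3 replicate 1), so that 3 genes of the list were lower without either of those 2 arrays. Fgf5, the classical epiblast ligand, was at background at both stages (means of 2.39 at day 4 and 2.33 at day 3).

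Nodal, a ligand of the TGF-beta family, read 4.18, 3.48 and 3.73 at day 4, against 6.20, 5.32 and 6.23 at day 3 (-2.12 ± 0.22 SE, adjusted p = 1.9e-04, limma), and was the only called gene of 27 on the primitive streak, mesoderm and endoderm list. Foxh1, the DNA-binding partner of Smads downstream of Nodal, read 2.74, 3.0 and 2.73 at day 4, against 7.19, 7.37 and 6.45 at day 3, at least 8.02-fold lower (adjusted p = 1.9e-07, limma). None of 27 FGF-ERK genes was higher and, against 0.792% of all genes, 3 were lower. These were Fgf15, the transcription factor Etv5 (-2.83 ± 0.48 SE, adjusted p = 0.0086, limma) and the FGF receptor-binding adhesion protein Flrt3 (-3.21 ± 0.52 SE, adjusted p = 0.0058, limma). The count fell to 0 without replicate 1 of day 3 and to 1 without replicate 2 or 3 of day 3 or without replicate 2 or 3 of day 4, with an adjusted p of up to 0.044 without day 3 replicate 1 for Etv5 and 0.036 without day 3 replicate 1 for Flrt3. Fgf8 was at the lowest value on the arrays at both stages.

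Genes of epithelial cells made up a group among the falls that was noticed only after the values were seen. Of the cadherin and junction list, 3 of 24 genes were lower and none higher, whichever array was left out. With every array in the fit, 0.792% of all genes were lower. Epcam, an epithelial adhesion protein, read 5.42, 5.05 and 6.07 at day 4, against 8.70, 8.65 and 8.11 at day 3 (-2.97 ± 0.22 SE, adjusted p = 1.2e-05, limma). The tight junction claudin Cldn6 read 4.09, 5.42 and 6.61 at day 4, against 8.32, 8.82 and 9.06 at day 3 (adjusted p = 0.0016, limma) and Cldn7 read 2.69, 4.14 and 3.44 at day 4, against 6.97, 6.73 and 6.56 at day 3 (adjusted p = 1.5e-04, limma). Cdh1 (E-cadherin), also named after its values were seen, read 5.54, 7.25 and 7.67 at day 4, against 10.27, 10.05 and 10.44 at day 3, with no overlap, and was not called (adjusted p = 0.077, limma). Esrp1, a splicing regulator of epithelial cells, read 5.81, 6.06 and 6.17 at day 4, against 9.96, 9.78 and 8.82 at day 3, an 11.3-fold decrease (adjusted p = 4.3e-06, limma), and the epithelial RNA-binding protein Rbm47 was at least 2.45-fold lower (adjusted p = 0.0045, limma), a call lost without any 1 of 4 arrays (up to 0.026 without day 4 replicate 2).

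Further called genes of this kind, collected with no test, were the protease inhibitors Spint1 and Spint2, the polarity genes Crb3 and Llgl2, the tricellular junction gene Marveld2, the desmosomal cadherin Dsg2, and Perp and Mpzl2. With the 5 above they came to 13 genes, each picked from among the genes called lower. Rbm47, Marveld2 and Mpzl2 were under background on every day 4 array, which bounds their falls at at least 2.45-fold, at least 3.02-fold and at least 4.35-fold, and the others differed by -3.50 to -1.69. The neural cadherin Cdh2 stood at 12.05 ± 0.07 at day 4 and 11.79 ± 0.14 at day 3 (SD, n = 3 each), with a difference of 0.27 ± 0.43 SE. In the basement membrane, Lamb1, a laminin chain, read 5.19, 6.26 and 5.45 at day 4, against 9.15, 8.74 and 8.57 at day 3 (adjusted p = 1.4e-05, limma), and Ptn, a secreted growth factor, differed by -2.10 ± 0.33 SE (adjusted p = 0.0048, limma). In limma Ptn was not called with the replicate number as a block (adjusted p = 0.013) or without any 1 array other than replicate 3 of day 4 (up to 0.027 without day 3 replicate 1), and the extracellular matrix list, with 2 of 29 lower and a median of -0.60, had 1 lower without any 1 of the day 3 arrays or replicate 1 of day 4. The RNA-binding protein Lin28a, which keeps cells from maturing, passed on 1 of its 2 probe sets, and the brighter one averaged 10.88 ± 0.22 at day 4 and 11.85 ± 0.18 at day 3 (SD, n = 3 each) (adjusted p = 0.043, limma).

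Sfrp5, a secreted Wnt antagonist, had the most negative difference of means, but day 4 lay under background and its fall has only a bound, whereas Ifitm1 (32.8-fold) and Cltrn (32.5-fold) were lower by more than that bound. Sfrp5 read 2.78, 2.78 and 2.63 at day 4, against 9.07, 8.50 and 7.37 at day 3, at least 19.9-fold lower at day 4 (adjusted p = 8.6e-07, limma). It was at background before day 3 as well, with means of 2.78 at day 0, 3.01 at day 2 and 3.16 after 8 h of RA. Sfrp5 was 1 of 13 lower genes whose only group mean at or above background was that of day 3. Others among them were Kynu (kynureninase, of tryptophan breakdown) at 2.25, 2.24 and 2.24 at day 4, against 7.09, 6.81 and 5.91 at day 3, the aldo-keto reductase Akr1c19 at 2.32, 2.32 and 2.32 at day 4, against 7.22, 6.98 and 6.70 at day 3 and the galectin-related Grifin at 2.24, 2.30 and 2.32 at day 4, against 6.12, 6.38 and 6.36 at day 3. Grifin had the lowest adjusted p of the named genes, 1.8e-11 in limma, and Kynu and Akr1c19 had 2.1e-07 and 8.8e-09. Grifin had an SD of 0 at day 2, day 2 with RA and day 7, and Akr1c19 at day 4, all at background. Values without spread at background make such p-values smaller. Cltrn, which encodes collectrin, was nearly of this kind, at 3.23, 5.62 and 3.78 at day 4, against 9.70, 9.69 and 8.30 at day 3, with means of 2.24 in every group other than day 3 and day 4. The remaining single-stage genes were Akr1c18, Arhgap24, Cd74, Ch25h, Cpn1, Hkdc1, Klb, Large2 and Sgpp2.

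Other large falls were of genes that were bright in ES cells. Ifitm1, an interferon-induced membrane protein, read 4.75, 5.14 and 6.67 at day 4, against 10.62, 10.72 and 10.32 at day 3 (adjusted p = 9.2e-04, limma). Pla2g1b, a secreted phospholipase, read 3.14, 2.57 and 3.14 at day 4, against 7.65, 7.32 and 8.32 at day 3, at least 13.6-fold lower (adjusted p = 2.0e-06, limma). Eras, a Ras-like protein of ES cells, read 3.11, 4.44 and 3.53 at day 4, against 8.75, 8.30 and 7.75 at day 3 (adjusted p = 1.6e-04, limma). Folr1, a folate receptor, read 2.52, 3.45 and 6.06 at day 4, against 8.11, 8.34 and 8.37 at day 3 (adjusted p = 0.0038, limma), and AU015836 differed by -4.36 ± 0.65 SE (adjusted p = 0.0036, limma). These 5 genes averaged between 9.86 and 12.29 at day 0.

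The actin-severing protein Gsn and the GTPase-activating protein Arap3 were under background on every day 4 array and were at least 9.84-fold and at least 7.38-fold lower, on 1 of 6 and 1 of 3 probe sets. Calls for 4 of these genes were lost when single arrays were left out. For AU015836 this held for 5 arrays (up to 0.016 without day 3 replicate 3), for Folr1 for 4 (up to 0.023 without day 4 replicate 2), for Gsn for 5 (up to 0.019 without day 3 replicate 1) and for Arap3 for 3 (up to 0.02 without day 4 replicate 2).

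The reverse pattern, a group mean at or above background at day 4 alone, was seen for 9 of the 114 higher genes. These were Cyp26b1, Nkx2-9, A730035I17Rik, Foxd1, Foxd2, Irf8, Otp, Crp and Mobp. A730035I17Rik read 7.50, 8.08 and 7.27 at day 4, against 2.66, 2.66 and 2.92 at day 3, and Foxd1, a forkhead factor, read 6.12, 6.32 and 5.86 at day 4, against 3.08, 2.77 and 3.88 at day 3. Over all 6 groups, 43 of the higher genes had their highest mean at day 4 and 65 at day 7. Of the lower genes, 45 had theirs at day 0, 27 at day 2, 28 at day 2 with RA, 39 at day 3 and 5 at day 7.

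**Figure D5:**
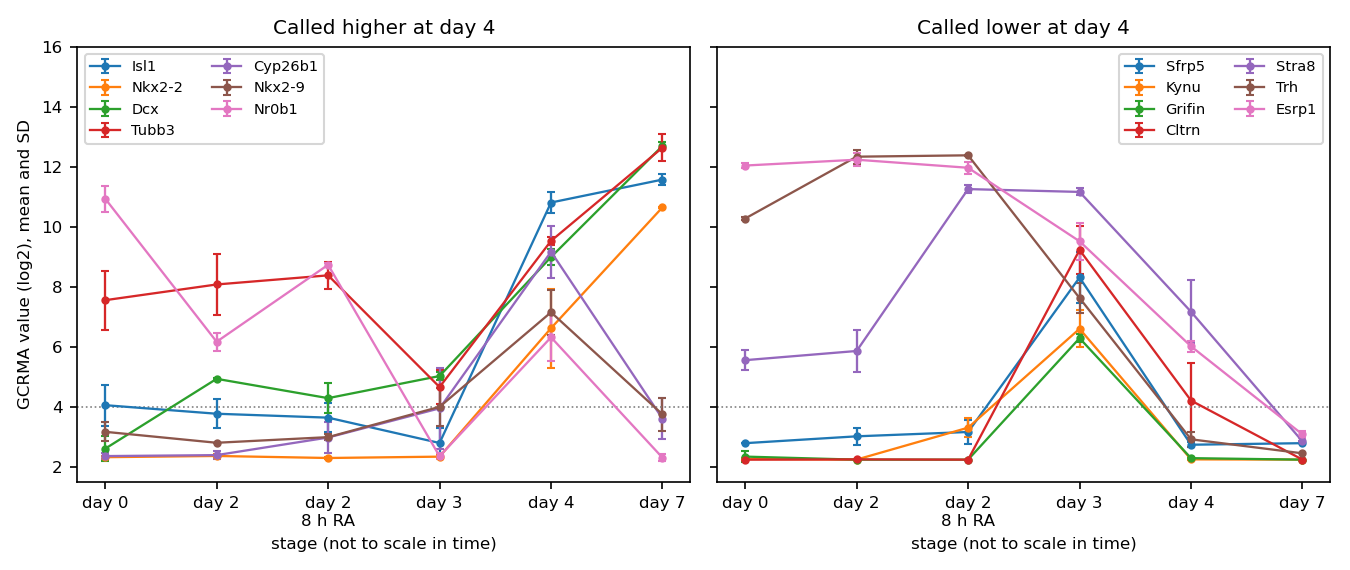
Mean log2 value with SD at each of the 6 stages (2 to 4 arrays each, background level of 4 dotted) for 7 genes called higher at day 4 (left) and 7 called lower (right). Isl1 appears at day 4 and stays, the means of Cyp26b1 and Nkx2-9 are above background at day 4 only, and those of Sfrp5, Kynu and Grifin at day 3 only.

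Set beside the neighboring steps, the step to day 4 was the smallest by count. Day 3 against day 2 gave 711 higher and 692 lower genes (3.91% and 3.8%), and day 7 against day 4 gave 1977 and 1486 (10.9% and 8.17%). These steps share arrays with the comparison, so the fates of the genes are given as counts only. Of the 114 genes higher at day 4, 45 were higher again at day 7 than at day 4, 24 were lower, 44 were not called and 1 was called in both directions on different probe sets. At day 3 against day 2, 29 of these 114 genes had been called higher, 10 lower and 75 not called. Of the 144 lower genes, 54 had already been called lower at day 3 against day 2, 34 had been called higher there and 56 not called.

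Markers of other cell types were measured in the same arrays. Of 18 extraembryonic endoderm markers, 2 were lower (Lamb1 and Rhox5) and none higher, and the summed level of the list, as log2 of the added linear values, spanned 10.46 to 10.97 at day 4 and 11.64 to 11.91 at day 3. Its defining genes Gata4, Gata6, Sox17, Afp, Ttr and Apoa1 were under background at both stages. Hnf4a, picked out after its values were seen, read 2.24, 2.24 and 2.24 at day 4, against 7.55, 8.12 and 2.49 at day 3, so 2 day 3 arrays were above background and replicate 3 of that stage was not. Hnf4a was not called (adjusted p = 0.3, limma), while Sfrp5, Kynu, Akr1c19 and Grifin were above background on all 3 day 3 arrays, and the part of such cells in those falls was not tested. Rhox5, an X-linked homeobox gene, read 3.54, 3.26 and 5.17 at day 4, against 7.30, 7.17 and 7.52 at day 3 (adjusted p = 0.0042, limma), a call lost without any 1 array other than replicate 3 of day 4 (up to 0.023 without day 4 replicate 2). The list had 1 lower gene without replicate 1 or 2 of either stage.

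The primitive streak, mesoderm and endoderm list summed to 7.37 to 7.73 at day 4 and 8.36 to 8.48 at day 3, with 24 of its 27 genes under background at both stages. The neural crest list (0 of 15 called) spanned 8.64 to 10.03 at day 4 and 9.42 to 10.38 at day 3, the cardiac muscle, blood and endothelium list (0 of 21) 7.15 to 9.87 at day 4 and 8.01 to 10.84 at day 3, the feeder fibroblast list (0 of 14) 13.52 to 13.81 at day 4 and 12.90 to 13.86 at day 3 and the glial list (0 of 19) 11.51 to 12.17 at day 4 and 10.52 to 11.04 at day 3. The primed epiblast list, 5 of 15 lower, spanned 10.52 to 11.69 at day 4 and 12.58 to 12.68 at day 3, and the pluripotency list 13.17 to 13.29 at day 4 and 13.55 to 13.82 at day 3. Group means at both stages were under background for 7 of the 15 neural crest genes and 17 of the 21 cardiac muscle, blood and endothelium genes. The same held for 7 of the 14 feeder fibroblast genes, Col3a1, Postn and Lum among them, but not for the other members. Differences in that list ran from -4.35 to 1.01. Of the 19 glial genes, 10 were under background at both stages, including Gfap, Aqp4, Sox10 and Pdgfra, and the median difference of that list was 0. Each summed level mostly follows the brightest members of its list. All 21 forebrain and midbrain markers were under background at both stages. Of 25 spinal interneuron genes, Lhx4, which V2 cells share with motor neurons, was the only 1 called, and 19 lay under background. None of 10 housekeeping genes was called (1 negative at an unadjusted p under 0.05), although Gusb, named after its values were seen, was called lower with the replicate number as a block (adjusted p = 0.0087, limma). No gene was called either in the lists for BAF subunits and neural chromatin factors (23), glycolysis and hypoxia (27), cholesterol (22) or stress, apoptosis and p53 (25), where at an unadjusted p under 0.05 the first had 4 genes with positive and 1 with negative differences, the second 0 and 1, cholesterol 0 and 0 and stress 0 and 2. Of 27 DNA methylation and Polycomb genes Dnmt3b was called, and of 22 imprinted genes Dlk1, joined by Plagl1 with the block.

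Several called genes were neighbors in the genome (GRCm38.p6, within 100 kb). Besides Pantr1 with Pou3f3 and Hoxa4 with Hoxa5, the filament genes Nefl and Nefm on chr14 were both higher (5.47-fold and at least 6.68-fold), the overlapping Kifc2 and Foxh1 on chr15 were both lower (12.8-fold and at least 8.02-fold), and Akr1c18 and Akr1c19 on chr13 were both lower (at least 3.66-fold and at least 7.82-fold). On chr7, 7261 bases apart, Spint2 was lower (-1.69 on the log2 scale) and Ppp1r14a, a phosphatase inhibitor gene, higher (3.11). The protocadherins Pcdhb16, Pcdhb17, Pcdhb20 and Pcdhb21 on chr18 were all higher, by 4.98-fold for Pcdhb16 and by at least 1.21-fold, at least 5.02-fold and at least 2.9-fold for Pcdhb17, Pcdhb20 and Pcdhb21, whose day 3 arrays lay under background, but they are similar paralogs, and whether their probe sets, or those of the overlapping Kifc2 and Foxh1, read one another was not tested. These pairs were collected after the calls were known.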

How the data were processed

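RNA was amplified by the authors and measured on Affymetrix mouse whole-genome expression arrays. The deposited log2 values were made by the authors with GCRMA (background adjustment, quantile normalization and summary per probe set) across all 18 arrays, with versions not given in the sources used here. Stages and replicate numbers came from the sample labels. The arrays hold 45101 probe sets, of which 64 controls were dropped, leaving 45037 for testing. Among those, 34945 had 1 gene symbol in the platform annotation, 932 had several and 9160 none, which gave 18193 genes. Each gene is represented by its brightest probe set, judged by the mean across the 18 arrays.

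Day 4 was compared with day 3 in limma 3.58.1 (R 4.3.3) with 6 group means over all 18 arrays, so that every stage adds to the estimate of spread (12 residual and 0.515 prior degrees of freedom), and Benjamini-Hochberg adjustment over all tested probe sets. The rule for named genes took a fixed set of key genes, the top 15 genes in each direction whose brightest probe set was called with no overlap of the arrays, and up to 4 called members of each list per direction. Members and lists were chosen with earlier results of these data known. All other genes given with values were picked after those values were seen, apart from the defining cell type markers Chat, Slc18a3, Gata4, Gata6 and Sox17, which belong to the list of markers used to check the stages. Same-numbered arrays of the 2 stages deviated together from their group means (correlations of 0.64, 0.42 and 0.75), so the numbers were taken to pair the arrays, and a fit with the replicate number as a block was run as well. Other alternatives changed the arrays fitted, the variance model, the scaling, the filter on dim probe sets, the choice of probe set and the thresholds. Tables were handled in Python 3.11.15. No counts underlie the values, and the number of arrays limits the precision.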

Additional observations from a re-analysis of the deposited data

How the results depend on the processing

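The count of 258 called genes (114 higher and 144 lower at day 4) stayed within 1.5 times under another variance model, scaling, dim filter, probe set rule, fold limit or array weights, and with the replicate number as a block over all 18 arrays (301 genes, 133 higher and 168 lower). Beside the genes given with their results, the block changed no other call among the named genes. Fitting only the day 4 and day 3 arrays, which leaves fewer degrees of freedom, gave 17 genes (6 higher, 11 lower), and with the block 0 (0 higher, 0 lower). With that block, limma had 1406 probe sets at 2-fold and an unadjusted p under 0.05, against 1574 in the main fit over all arrays. How many would pass without any difference was not counted, so these counts are no support for the calls. Of 103 named genes, 69 were called on their brightest probe set. Of those 69 calls, 66 were lost in the fit of those 6 arrays without the block, and 11 with probe sets averaged per gene. An adjusted p under 0.05 as the limit gave 441 genes (185 higher, 256 lower). Leaving out 1 array gave 168 to 295 genes, 82 to 128 higher and 85 to 167 lower. Leaving out both arrays of replicate 1 gave 134 genes (82 higher, 52 lower), of replicate 2 122 (58 higher, 64 lower) and of replicate 3 249. These omissions of pairs were chosen after seeing the data.

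Signs turned for 5 genes that were not called. With 1 array left out, the log2 difference ranged between -0.44 and 0.023 for Gli1, between -0.82 and 0.42 for Hes1, between -0.25 and 1.42 for Hoxc8, between -0.14 and 0.25 for Ptch1 and between -0.28 and 0.022 for Sox2. Ptch1 was -0.043 with probe sets averaged, Hes1 0.036 with array weights and Hoxc8 -0.041 without replicate pair 1. The cause was not tested. Below the background level of 4, values have little resolution, and folds against it are lower bounds.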
